A study of Mus musculus with 2 samples.

Results

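Alveolar fibroblast-like cells of the mouse lung were chosen from 2 deposited single-cell RNA libraries by measured levels of *Npnt*, *Scube2*, *Limch1*, *Inmt* and *Spon1*, and 2542 of 23349 cells met the rule. A cell of the rule had 200 to 6000 detected genes, at most 10% mitochondrial unique molecular identifiers (UMIs), and no UMI of the epithelial gene *Epcam* or the leukocyte gene *Ptprc*. The 5 genes together had to make up at least 40 of every 10000 UMIs of the cell, and at least 3 of them had to be detected. The control library held 610 such cells among 10999, or 5.55% (95% exact binomial interval 5.13 to 5.99%). The *Gli1 HHIPCKO* library held 1932 among 12350, or 15.6% (15.0 to 16.3%). Among the cells without *Epcam* and *Ptprc* UMIs, 7761 in the control library and 8775 in the *Gli1 HHIPCKO* library, the shares were 7.86% and 22.02%. These shares describe what the rule chose in sorted and remixed cells of 1 mouse each, and no test was made of them.

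Fibroblasts of the alveolar wall lie close to the epithelium, build the basement membrane and the elastic fibre network of the growing alveoli, and supply growth factors to alveolar type 2 (AT2) cells. In the young rodent lung many of them store lipid and retinoids, which gave them the name lipofibroblasts. The Hedgehog pathway acts on such stromal cells, where the ligand releases Smoothened from inhibition by Patched receptors and so activates the Gli transcription factors. HHIP is a surface protein that binds Hedgehog ligands and holds them away from Patched.

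The study asks what loss of *Hhip* from Hedgehog-responsive cells does to the stroma of the neonatal lung. Both mice had the genotype *Gli1 creER/+:Hhip flox/flox*, and neither the labels nor the methods name a strain background for them. The *Gli1 HHIPCKO* mouse was injected with tamoxifen on the first days of life and the control mouse with oil on the same days, and lungs were taken at postnatal day 14 (P14). The inducible Cre was driven by *Gli1*, so recombination was limited to cells that expressed *Gli1* around the injections and to their descendants, and the control cells carried the same Cre allele and the same floxed alleles. Receiving tamoxifen and losing *Hhip* cannot be told apart in this design. Live stromal and epithelial cells, depleted of leukocytes and endothelial cells, were sorted from each lung and combined at 3:1. The control library contains 43291709 UMIs and the *Gli1 HHIPCKO* library 52338969 UMIs. With 1 mouse per group there are no replicates, so each value carries an exact interval for counting error alone. Levels are UMIs summed over the cells of the rule per 1000000 UMIs of those cells (CPM, exact Poisson interval), and log2 ratios set *Gli1 HHIPCKO* over control (exact binomial interval of the ratio). Where a pair of levels is given without naming the libraries, the control value comes first.

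The cells of the rule had similar depth in both libraries, with medians of 3616 UMIs and 1791 genes in the control library and 3638 UMIs and 1835.5 genes in the *Gli1 HHIPCKO* library. Their median mitochondrial share was 0.686% and 0.858%. The summed score of the rule genes had a median of 89.9 per 10000 UMIs in control cells, with quartiles of 63.3 and 119, and of 101 in *Gli1 HHIPCKO* cells, with quartiles of 73.96 and 130.3. All 5 rule genes were detected in 404 control cells (66.2%) and in 1474 *Gli1 HHIPCKO* cells (76.3%). No break separated the cells at the threshold. Just inside it, at 40 to 45 per 10000 UMIs, lay 30 control and 68 *Gli1 HHIPCKO* cells, and just outside it, at 35 to 40, lay 40 and 56 cells. The transcription factor gene *Tcf21*, which the rule did not use, stood at 746 and 838 CPM inside and at 803 and 614 CPM outside, in control and *Gli1 HHIPCKO* cells in that order. Cells on both sides also carried markers of other fibroblasts. The adventitial gene *Dcn* stood at 367 and 631 CPM inside and at 367 and 763 CPM outside, against 135 and 161 CPM in all cells of the rule. The myofibroblast gene *Tgfbi* stood at 230.0 and 646 CPM inside and at 301 and 626 CPM outside, against 96.7 and 215 CPM in all cells of the rule.

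**Figure D1:**
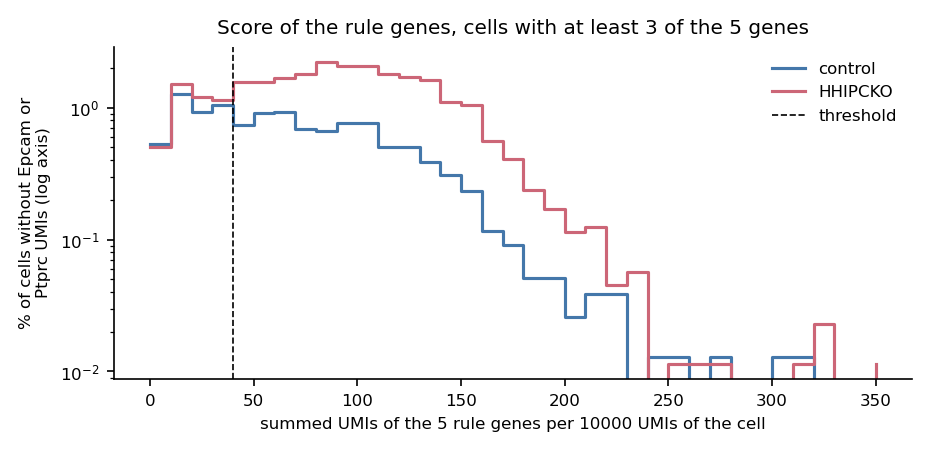
Distribution of the summed rule gene UMIs per 10000 UMIs of the cell (horizontal axis) among cells with at least 3 of the 5 genes, as a percentage of the cells without *Epcam* and *Ptprc* UMIs (log axis), with 1 line for each library and the threshold of 40 dashed. Neither line has a gap at the threshold, and 357 control and 1352 *Gli1 HHIPCKO* cells reach 80 per 10000.

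The markers given for alveolar fibroblasts were present at high levels in the chosen cells. The values of the rule genes follow from the rule and serve as a description. *Npnt*, which encodes the integrin ligand nephronectin, stood at 4102 and 4331 CPM, and *Scube2*, which encodes a secreted protein that helps Hedgehog ligands leave the cells that make them, at 1051 and 1374 CPM. *Limch1*, an actomyosin regulator gene, was at 2009.5 and 2211 CPM, the methyltransferase gene *Inmt* at 854 and 1142 CPM, and *Spon1*, which encodes the matrix protein spondin 1, at 888 and 797 CPM. Of the markers outside the rule, *Tcf21* (ENSMUSG00000045680, chr10:22817281-22820174), a regulator of lung mesenchyme, stood at 1358 and 1129 CPM. *Itga8* (ENSMUSG00000026768, chr2:12106632-12301922), which encodes the integrin subunit that pairs with beta 1 to bind nephronectin, stood at 1191 and 1563 CPM. Each of these 7 markers was lower in the myofibroblast-like, adventitial-like and pericyte-like cells described next. For the 5 rule genes this is tied to the selection, because cells of the rule were left out of those classes. It is therefore a description, and only *Tcf21* and *Itga8* were not used in the selection. Smooth muscle-like and AT2-like cells are not covered by this comparison.

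Cells of 5 other classes were chosen from the same libraries with 5 marker genes each, by a sum of at least 20 per 10000 UMIs and at least 3 detected markers, thresholds set after the cells had been seen. They comprised 2882 control and 2672 *Gli1 HHIPCKO* myofibroblast-like cells, 567 and 592 adventitial-like, 405 and 644 pericyte-like, 238 and 222 smooth muscle-like, and 2781 and 3106 AT2-like cells. Cells of the alveolar fibroblast rule were left out of all of them. Of the 610 control cells of the rule, 72 (11.8%) also met the marker rule of another stromal class, mostly the myofibroblast-like rule with 39 cells. In the *Gli1 HHIPCKO* library 238 of 1932 (12.3%) did so, with 160 of them meeting the myofibroblast-like rule. No doublet caller was used for the main values. Leaving out the cells with the highest doublet scores removed 60 control and 207 *Gli1 HHIPCKO* cells of the rule.

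Several genes outside the rule set these cells apart from the 5 other classes, chosen here after their values were seen. *Slc7a10*, which encodes a transporter of small neutral amino acids, stood at 254 and 240.0 CPM, a level 43.6 and 34.00 times that of the highest other class in control and *Gli1 HHIPCKO* cells. The collagen gene *Col13a1* was at 517 and 494 CPM, 14.97 and 19.9 times the highest other class. The retinoic acid binding protein gene *Crabp1* was at 176 and 191 CPM and the growth factor receptor gene *Fgfr4* at 190.4 and 158 CPM. *Wnt2*, a ligand needed for lung specification in the embryo, was at 174 and 207 CPM, 35.2 and 14.7 times the highest other class. The cytoskeletal linker gene *Macf1* was among the most abundant of these genes, with 8029 and 10008 CPM. These ratios were similar in both libraries for *Col13a1* and *Macf1*, while that of *Wnt2* was higher in the control library.

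For the lipid part of the working name only a few genes were viewed, picked with their values in view, and they did not all point the same way. *Plin2* (ENSMUSG00000028494, chr4:86648386-86670060), which encodes a lipid droplet coat protein, stood at 214 and 197 CPM, against 118 and 82.5 CPM in AT2-like and 54.1 and 40.9 CPM in myofibroblast-like cells. *G0s2*, an inhibitor of triglyceride lipase, was abundant, with 1541 and 1639 CPM, 4.99 and 4.51 times the highest other class. *Slc27a6*, a fatty acid transporter gene, stood at 13.3 and 10.9 times the highest other class. *Pparg*, the regulator of fat cell differentiation often used to define lipofibroblasts, had only 10 UMIs in 610 control cells and 24 UMIs in 1932 *Gli1 HHIPCKO* cells. *Lpl*, which encodes the lipase that frees fatty acids from lipoproteins, was at 138 and 97.5 CPM. The cells are therefore called alveolar fibroblast-like here.

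The libraries also differed in ways that bear on each comparison. *Xist*, the RNA that coats the inactive X chromosome, had 0 UMIs in the control cells of the rule and 3958 UMIs (519 CPM) in the *Gli1 HHIPCKO* cells, at least 401-fold higher with the control count set to a floor of 3 counts over the group. The Y-linked genes *Eif2s3y*, a translation initiation factor gene, and *Ddx3y*, an RNA helicase gene, had 70.8 and 56.98 CPM in control cells and no UMI in *Gli1 HHIPCKO* cells, at least 179.8-fold and 145-fold lower with the same floor. *Uty* and *Kdm5d*, also Y-linked, had 37 and 55 UMIs in control cells and none in *Gli1 HHIPCKO* cells. The control mouse thus had the expression pattern of a male and the *Gli1 HHIPCKO* mouse that of a female, and effects of sex and of the deletion cannot be told apart. Of the 9 sex-linked genes listed, 7 were compared, 3 with a log2 ratio of at least 1 and 2 of at most −1, with a median of 0.90.

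RNA of other lineages was present, with the highest marker sum for red cells. The 5 AT2 markers summed to 403 CPM in control cells of the rule and to 294 CPM in *Gli1 HHIPCKO* cells of the rule, led by *Cxcl15*, against 12949 and 12342 CPM in AT2-like cells themselves. *Sftpc*, the surfactant protein gene of AT2 cells, is not among these 5 markers and had a UMI in 92.1% and 79.6% of the cells of the rule thinned to 2000 UMIs. Red cell genes summed to 4517 and 7365 CPM, led by the globin gene *Hbb-bs*. The 5 myofibroblast markers summed to 802 and 969 CPM, led by *Mustn1* in control and *Ltbp2* in *Gli1 HHIPCKO* cells, and the 5 adventitial markers to 404 and 316 CPM, led by *Dcn*. Pericyte markers, led by *Cox4i2*, summed to 125 and 88.1 CPM, smooth muscle markers, led by *Des*, to 133 and 189 CPM, and mesothelial markers, led by *Msln*, to 49.6 and 80.7 CPM. Endothelial markers summed to 16.8 and 19.3 CPM, with *Tie1* at 0 in control cells, and immune markers to 8.20 and 4.99 CPM, with *Ptprc* at 0 by the rule. The part of these transcripts in the results below was not tested, except where a value without the cells concerned is given. The libraries shared 193 cell barcodes, 10 of them in control cells and 31 in *Gli1 HHIPCKO* cells of the rule, and none was a cell of the rule in both.

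*Hhip* was lower in the *Gli1 HHIPCKO* cells, and the other Hedgehog genes moved in both directions. *Hhip* (ENSMUSG00000064325, chr8:79965851-80058006) stood at 159 CPM (143 to 176) in control cells against 67.1 CPM (61.4 to 73.1) in *Gli1 HHIPCKO* cells, a log2 ratio of −1.25 (−1.44 to −1.05). Within bands of the rule score the ratio was −1.10 at 40 to 80, −1.11 at 80 to 120 and −1.46 at 120 or more per 10000 UMIs, below −1 in each of them. At 2000 UMIs per cell, *Hhip* was detected in 20.2% of 519 control cells and 10.5% of 1631 *Gli1 HHIPCKO* cells, with 91 and 301 shallower cells left out. Without thinning the shares were 26.9% and 17.1%. *Hhip* was also detected in 4.55% and 2.01% of thinned AT2-like cells, whose median depths were 5422 and 6225 UMIs, so the *Gli1 HHIPCKO* share in cells of the rule was above the AT2-like shares. The source of *Hhip* UMIs in AT2-like cells was not tested. Pericyte-like cells had *Hhip* at 14.9 and 6.28 CPM. The ratio of *Hhip* was further below 0 in 4 of the other classes than in cells of the rule. It was −1.93 in myofibroblast-like, −1.72 in adventitial-like, −1.82 in smooth muscle-like and −1.80 in AT2-like cells. In pericyte-like cells it was −1.25 (−2.75 to 0.16). The part of RNA from other cells in the *Hhip* UMIs of the rule was not tested.

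Of 21 Hedgehog pathway genes, 12 were compared, with 1 at a log2 ratio of at least 1, 2 at most −1 and a median of 0.11. The sign of this median rested on *Hsd11b1*, which encodes the enzyme that regenerates active glucocorticoid, and without it the median was −0.03. Across all 5874 genes compared, which were detected in 10% or more of the cells in either library and had at least 50 UMIs in both together, 58 (0.987%) had a ratio of at least 1, 53 (0.902%) had a ratio of at most −1, and the median was 0.03. Since this median was above 0, more genes lay above 0 than below it. These shares and this median are the background for every list count in the report. *Gas1* (ENSMUSG00000052957, chr13:60174405-60177365), a co-receptor that binds Hedgehog ligands, stood at 490.0 and 230.5 CPM, a ratio of −1.09 (−1.20 to −0.98). *Foxf1*, a mesenchymal transcription factor gene regulated by Hedgehog signals, was at 26.8 and 76.1 CPM, with 1.51 (1.13 to 1.91). In cells chosen by 6 other markers *Gas1* had −0.79 and *Foxf1* 0.84, which left *Hhip* as the gene of this list that kept its call. *Osr1*, a transcription factor gene of early lung mesenchyme, was at 93.7 and 48.4 CPM, with −0.95 (−1.20 to −0.70). *Hsd11b1*, the most abundant gene of the list, was at 675 and 984 CPM. Of the readouts most used for the pathway, *Gli1* was scarce and *Ptch1* short of the fold, and both had ratios above 0. *Gli1* had 17 UMIs in control and 113 in *Gli1 HHIPCKO* cells (7.34 and 14.8 CPM), too few cells for the comparison, and its ratio was 1.01 (0.27 to 1.84). *Ptch1*, which encodes the receptor and is itself a target, was at 67.8 and 95.4 CPM, with 0.49 (0.24 to 0.75). In myofibroblast-like cells *Gli1* and *Ptch1* had ratios of 2.02 and 0.89, and in adventitial-like cells 0.68 and 0.82. Pericyte-like cells had *Ptch1* at 0.05 (−0.40 to 0.50). *Gli2* was at 31.9 and 22.6 CPM, with −0.50 (−0.90 to −0.09).

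After *Xist*, the 11 highest ratios belonged to *Tnfaip2*, *Cdkn1a*, *Hp*, *Gm14964*, *Fkbp5*, *Pde8a*, *Ddit4*, *Mt1*, *Nnat*, *Mettl21e* and *Glul*, from 2.63 down to 1.65. *Tnfaip2*, a gene induced by tumour necrosis factor, stood at 7.34 and 45.4 CPM, and *Hp*, which encodes the haemoglobin-binding protein haptoglobin, at 15.97 and 83.6 CPM. *Hp* is abundant in AT2 cells, and in AT2-like cells it was at 445 and 336 CPM, the opposite order of the libraries. *Pde8a*, a cyclic AMP phosphodiesterase gene, was at 7.77 and 35.4 CPM. *Glul*, which encodes glutamine synthetase, was the most abundant of the 11, at 212 and 663 CPM, and *Nnat*, an imprinted membrane protein gene, was at 24.2 and 85.96 CPM. *Mettl21e*, a methyltransferase gene, was at 47.5 and 158 CPM, and the unnamed gene model *Gm14964* at 7.34 and 35.96 CPM. Some of the 11 genes also had ratios above 0 in other classes. *Fkbp5* had ratios of 2.33 in myofibroblast-like, 1.88 in adventitial-like and 2.52 in pericyte-like cells. In the same order *Mt1* had 1.26, 1.53 and 0.81, and *Ddit4* had 0.94, 1.41 and 0.82. By contrast, *Hp* had −0.07, 0.12 and −0.95 in that order, and *Nnat* had −0.16 in AT2-like cells. Differences between the classes were not tested.

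After the Y-linked genes, the 10 lowest ratios belonged to *Klf2*, *Hdhd3*, *Palmd*, *Nr4a1*, *Cpz*, *Hic1*, *Lgi2*, *Gm26782*, *Ccn5* and *Sdf2l1*, from −2.42 up to −1.46. *Hdhd3*, a hydrolase family gene, stood at 78.1 and 16.9 CPM, and *Palmd*, which encodes palmdelphin, at 30.2 and 8.92 CPM. *Hic1*, a transcriptional repressor gene of quiescent mesenchymal progenitors, was at 71.7 and 25.1 CPM. *Sdf2l1*, a chaperone gene of the endoplasmic reticulum, was at 30.6 and 11.2 CPM. *Lgi2* was at 46.6 and 16.4 CPM and the gene model *Gm26782* at 39.3 and 13.9 CPM. Several of these genes had similar ratios in other classes. *Hdhd3* had ratios of −1.99 in myofibroblast-like, −2.98 in adventitial-like and −1.63 in AT2-like cells, and *Palmd* had −1.88, −1.78 and −1.70 in the same order. In contrast, *Lgi2* had a ratio of 0.01 in myofibroblast-like cells, a difference that was not tested. *Ccn5*, which encodes a secreted matricellular protein, was at 50.5 and 18.4 CPM in cells of the rule, with −1.46 (−1.82 to −1.09).

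Genes known for alveolar fibroblasts gave 1 ratio past the fold. All 31 listed genes outside the rule were compared, none had a ratio of at least 1 and 1 had a ratio of at most −1. The median was 0.09, against 0.03 across all 5874 genes compared. The gene past the fold was *Gdf10*, a growth factor gene of the bone morphogenetic protein family, at 136 and 59.7 CPM, with −1.18 (−1.39 to −0.97), and −0.90 at a threshold of 80. *C7*, which encodes a late complement component, was at 636 CPM (604 to 669.6) in control cells against 1255 CPM (1229.9 to 1280.3) in *Gli1 HHIPCKO* cells, with a ratio of 0.98 (0.90 to 1.06), which was past the fold under 4 alternatives, at up to 1.34 in cells chosen by 6 other markers. *Cdo1*, the cysteine dioxygenase gene, was at 205 and 340.0 CPM, with 0.73 (0.59 to 0.87), and the chemokine gene *Cxcl14* at 1035 and 1632 CPM, with 0.66 (0.59 to 0.72). The most abundant gene of the list was *Mfap4*, which encodes a protein of elastic microfibrils, at 17379 and 18438 CPM. *Tcf21* had a ratio of −0.27 (−0.33 to −0.21) and *Itga8* of 0.39 (0.33 to 0.45), so these 2 markers lay on opposite sides of 0.

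Lipid, sterol and retinoid lists each gave at most 1 ratio past the fold. Among all genes compared 0.987% were at or above 1 and 0.902% at or below −1, and in such short lists 1 gene exceeds these shares. Of 31 lipid storage and lipofibroblast genes, 18 were compared, 1 had a ratio of at least 1, none of at most −1, and the median was 0.17. *Acsl3*, which encodes an acyl-CoA synthetase of lipid droplets, was the gene past the fold, at 21.2 and 53.02 CPM, with 1.33 (0.90 to 1.78). *Fabp3*, a fatty acid carrier gene, was at 152 and 80.7 CPM, with −0.91 (−1.10 to −0.72), and *Mgll*, the monoacylglycerol lipase gene, at 58.3 and 91.7 CPM, with 0.65 (0.39 to 0.93). *Lpl* had a ratio of −0.50 (−0.69 to −0.30) and *Plin2* of −0.11 (−0.26 to 0.03). Of 20 sterol synthesis genes only 5 were compared, none past the fold, and all 5 had ratios below 0 with a median of −0.49. *Insig1*, a sterol sensor gene, was at 38.9 and 22.4 CPM, and *Sc5d*, a sterol desaturase gene and the most abundant of the 5, at 117 and 83.1 CPM. Of 20 retinoid genes 10 were compared, with none at or above 1, 1 at or below −1 and a median of 0.03.

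*Rbp4*, which encodes the carrier of retinol in plasma, was the retinoid gene past the fold. It stood at 329 CPM (306 to 353) in control cells against 140.4 CPM (132 to 149) in *Gli1 HHIPCKO* cells, a ratio of −1.23 (−1.36 to −1.09). It is also listed among adventitial genes, and its ratio was −1.23 in the lowest score band, −0.41 in the middle band and 0.80 in the highest, where it had only 21.8 and 38.1 CPM. *Aldh1a1*, which encodes an enzyme that makes retinoic acid, stood at 159.7 and 274 CPM, with 0.78 (0.62 to 0.94), and *Tgm2*, a transglutaminase gene induced by retinoic acid, at 309 and 505 CPM, with 0.71 (0.59 to 0.83).

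Growth factor genes that support the epithelium gave 1 ratio past the fold. Of 32 listed, 15 were compared, none at or above 1 and 1 at or below −1, with a median of 0.06. That gene was *Csf1*, the macrophage colony stimulating factor gene, at 73.4 and 29.3 CPM, with −1.33 (−1.62 to −1.03), and −0.79 in cells chosen by 6 other markers. *Wnt5a*, a non-canonical Wnt ligand gene, was at 75.98 and 108 CPM, with 0.51 (0.27 to 0.75), and *Bmp3*, an antagonist of bone morphogenetic proteins, at 329 and 241 CPM, with −0.45 (−0.57 to −0.32). The ratio of *Wnt5a* changed sign, to −0.30, without the cells that also met another stromal marker rule. *Mdk*, the midkine gene, was the most abundant, at 486 and 602 CPM. *Fgf10*, which drives lung branching, was at 81.6 and 71.1 CPM, with −0.20 (−0.44 to 0.05), and *Hgf*, a mitogen gene for AT2 cells, at 37.6 and 39.1 CPM, with 0.06 (−0.29 to 0.42). *Wnt2* had a ratio of 0.26 (0.10 to 0.42) that became −0.08 in cells with a score of at least 80.

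Most collagen and elastic fibre genes compared had ratios below 0, and none passed the fold. Of 29 collagen and basement membrane genes, 24 were compared and 17 had ratios below 0. Their median was −0.30, against 0.03 across all 5874 genes compared. *Col1a1* (ENSMUSG00000001506, chr11:94936224-94953042), which encodes the alpha 1 chain of type I collagen, stood at 8317 CPM (8199.9 to 8435) in control cells against 4638 CPM (4590.0 to 4687) in *Gli1 HHIPCKO* cells, a ratio of −0.84 (−0.87 to −0.82). *Col6a3* of type VI collagen was at 1726 and 1033 CPM, with −0.74 (−0.80 to −0.69), *Col5a1* of type V collagen at 955 and 576 CPM, with −0.73 (−0.80 to −0.65), and *Col4a1* of basement membrane collagen at 2664 and 1639.8 CPM, with −0.70 (−0.74 to −0.66). *Col3a1*, the most abundant collagen gene, was at 10506 and 7624 CPM, with −0.46 (−0.48 to −0.44). Not all members lay below 0. *Col4a5* of type IV collagen was at 284 and 301 CPM, with 0.08 (−0.04 to 0.21), the nidogen gene *Nid1* at 602 and 676 CPM and *Fn1*, which encodes fibronectin, at 9800.2 and 10728 CPM, with ratios of 0.17 (0.08 to 0.25) and 0.13 (0.11 to 0.15). Of 21 elastic fibre genes 18 were compared, none past the fold, with 13 below 0 and a median of −0.15. This median changed sign, to 0.03, in cells chosen by 6 other markers.

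*Eln* (ENSMUSG00000029675, chr5:134702593-134747323), the elastin gene, stood at 17743 CPM (17572 to 17916) in control cells against 11864 CPM (11786 to 11941) in *Gli1 HHIPCKO* cells, a ratio of −0.58 (−0.60 to −0.56). *Mfap5*, a microfibril gene, was at 557 and 363 CPM, with −0.62 (−0.71 to −0.52), and *Emilin1*, which encodes a protein at the surface of elastic fibres, at 308 and 229 CPM, with −0.43 (−0.56 to −0.30). *Ltbp2*, which encodes a protein that binds fibrillin, was on the other side of 0, at 299.6 and 438 CPM, with 0.55 (0.43 to 0.67). In the 3 score bands, from low to high, the ratio of *Col1a1* was −0.81, −0.67 and −0.56 and that of *Eln* −0.62, −0.53 and −0.68. Without the cells that met another stromal marker rule, the ratio of *Col1a1* was −0.93 and that of *Eln* −0.63, so both differences were also measured without those cells. Myofibroblast-like cells had a collagen list median of 0.41 and an elastic fibre list median of 0.38 for the same genes, and adventitial-like cells had −0.06 and −0.07. *Eln* itself had ratios of −1.16 in adventitial-like, −0.56 in smooth muscle-like and 0.36 in myofibroblast-like cells. Whether the classes differ was not tested.

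**Figure D2:**
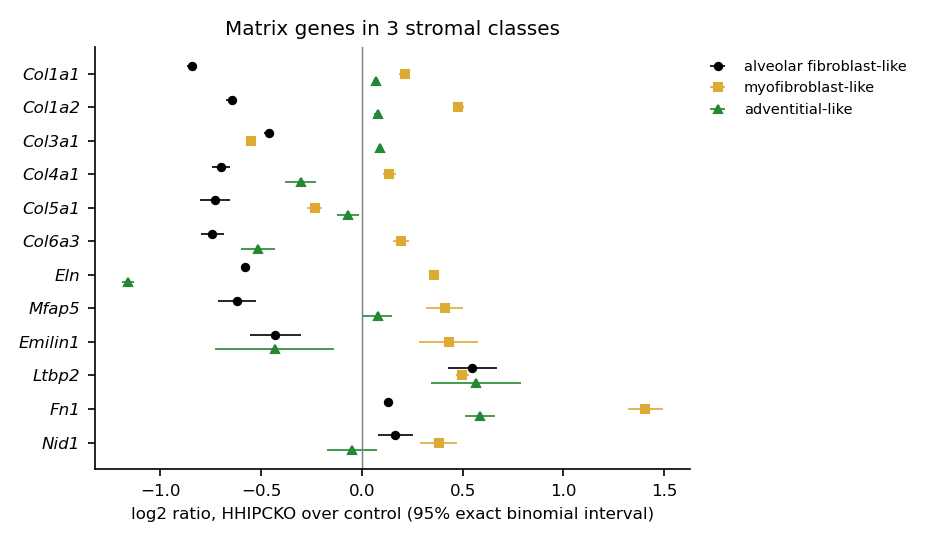
Log2 ratios (*Gli1 HHIPCKO* over control, horizontal axis) of 12 matrix genes in alveolar fibroblast-like, myofibroblast-like and adventitial-like cells, 1 point for each gene and class with its 95% exact binomial interval. *Col1a1* lies at −0.84 in alveolar fibroblast-like cells and at 0.21 in myofibroblast-like cells.

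Most contractile genes compared had ratios above 0, by amounts that depended on how the cells were chosen. Of 16 contractile genes 10 were compared, 8 had ratios above 0, 1 was past the fold, and the median was 0.54. The median of all 5874 genes compared was 0.03. *Tagln* (ENSMUSG00000032085, chr9:45929619-45936058), which encodes the actin-binding protein transgelin, was past it, at 875 CPM (838 to 914) in control cells against 1834 CPM (1804 to 1864) in *Gli1 HHIPCKO* cells, with 1.07 (1.00 to 1.13). *Acta2*, the smooth muscle actin gene, stood at 423 CPM (397 to 450.4) in control cells against 791 CPM (772 to 812) in *Gli1 HHIPCKO* cells, with 0.90 (0.81 to 1.00). *Tpm1*, a tropomyosin gene, was at 766 and 1353 CPM, with 0.82 (0.75 to 0.89), and *Myh11*, the smooth muscle myosin gene, at 37.1 and 70.1 CPM, with 0.92 (0.59 to 1.26). *Smtn*, the smoothelin gene, lay below 0, at 108 and 75.6 CPM, with −0.51 (−0.73 to −0.29). In cells chosen by 6 other markers the list median was 0.07, *Acta2* had a ratio of 0.20 and *Myh11* of 0.07, and *Tagln*, at 0.77, was no longer past the fold, as under 4 further alternatives. Under 7 other alternatives *Myh11* was past the fold, at 1.16 to 2.07. In the band with the highest rule score *Acta2* stood at 183 and 446 CPM, a ratio of 1.28, and without the highest doublet scores it had 1.21. At 2000 UMIs per cell, *Acta2* was detected in 27.7% of control cells and 47.8% of *Gli1 HHIPCKO* cells of the rule, against 7.39% and 11.1% of AT2-like cells. Before thinning the shares in cells of the rule were 37.2% and 54.7%. The smooth muscle markers summed to 133 and 189 CPM in the same cells.

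Genes listed for myofibroblasts leaned the same way outside the highest score band. Of 17 listed 11 were compared, 9 were above 0, 1 was past the fold, and the median was 0.30. From the lowest to the highest band the median was 0.58, 0.32 and −0.09, with 9, 8 and 5 of the 11 above 0. *Tgfbi*, which encodes an extracellular adhesion protein, was past it, at 96.7 and 215 CPM, with 1.15 (0.95 to 1.36). *Thbs2*, a thrombospondin gene, was at 33.7 and 55.8 CPM, with 0.73 (0.38 to 1.10), and *Mustn1*, a musculoskeletal gene, at 336 and 229.8 CPM, with −0.55 (−0.67 to −0.43). *Hmcn1*, which encodes the matrix protein hemicentin 1, was the most abundant of the list, at 900.1 and 916 CPM. *Pdgfra*, the platelet-derived growth factor receptor gene found across lung fibroblasts, was at 647 and 793 CPM, with 0.30 (0.21 to 0.38). Without the cells that met another stromal marker rule, the ratio of *Tgfbi* was 1.31, that of *Thbs2* −0.10, that of *Mustn1* 0.0046 and that of *Acta2* 1.15. *Tgfbi* was short of the fold under 6 alternatives, with a lowest value of 0.81 in cells chosen by 6 other markers. *Cdh4*, the cadherin gene of ductal myofibroblasts, had 14 control and 113 *Gli1 HHIPCKO* UMIs and was not compared.

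Most adventitial genes compared had ratios below 0. Of 15 listed 11 were compared, 9 were below 0, 2 were past the fold, and the median was −0.42, against 0.03 for all 5874 genes. The 2 genes past the fold were *Rbp4* and *Cpz*, which encodes a carboxypeptidase with a Wnt-binding domain, at 125 CPM (111 to 140.0) in control cells against 41.9 CPM (37.4 to 46.7) in *Gli1 HHIPCKO* cells, with −1.58 (−1.81 to −1.34). *Cpz* stood at 208 and 87.5 CPM in the lowest score band but at 17.5 and 9.30 CPM in the highest. *Igfbp6*, which encodes a binding protein with preference for insulin-like growth factor 2, was at 321 and 188 CPM, with −0.77 (−0.90 to −0.64). *Clec3b*, the tetranectin gene, was the most abundant, at 1880.4 and 1422 CPM, with −0.40 (−0.45 to −0.35). *Dcn*, the decorin gene, was at 135 and 161 CPM, with 0.25 (0.07 to 0.44), and its sign changed to −0.18 at a threshold of 20. Among listed genes in too few cells for the comparison, *Pi16*, *Ly6a* and *Ccl11* lay on the other side of 0, with 8, 6 and 12 UMIs in control cells and ratios of 1.88 (0.85 to 3.13), 2.07 (0.89 to 3.56) and 1.78 (0.93 to 2.77). Of 10 smooth muscle and pericyte genes only *Pdgfrb* and *Kcnj8* were compared, neither past the fold, with a median of −0.37. *Pdgfrb*, a platelet-derived growth factor receptor gene, was at 73.4 and 44.1 CPM, and *Kcnj8*, a potassium channel gene, at 44.03 and 44.1 CPM.

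*Igf1* was higher in the *Gli1 HHIPCKO* cells, but by less than the fold, with the largest ratio in the weakly scoring cells. Of 16 insulin-like growth factor (IGF) genes 10 were compared, none at or above 1 and 1 at or below −1, with a median of −0.01. *Igf1* (ENSMUSG00000020053, chr10:87858265-87937042), which encodes the growth factor itself, stood at 126 CPM (112 to 141) in control cells against 208 CPM (198 to 219) in *Gli1 HHIPCKO* cells, a ratio of 0.73 (0.55 to 0.91). Cells scoring 40 to 80 per 10000 had 143 and 333 CPM, a ratio of 1.22 (0.97 to 1.47). Cells scoring 80 to 120 had 110.0 and 167 CPM, a ratio of 0.60 (0.25 to 0.96), and cells scoring 120 or more had 107 and 105 CPM, a ratio of −0.03 (−0.48 to 0.44). No difference was thus detectable in the highest band, which held 148 control and 638 *Gli1 HHIPCKO* cells. Myofibroblast-like cells had *Igf1* at 203 and 968 CPM. Leaving out the highest doublet scores gave a ratio of 0.29, and leaving out cells that met another stromal marker rule gave 0.28. In cells chosen by 6 other markers the ratio was 1.25, past the fold.

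Detection of *Igf1* at 2000 UMIs per cell was 18.7% in control and 25.8% in *Gli1 HHIPCKO* cells of the rule, and 31.8% and 38.04% before thinning. Pericyte-like cells, with median depths of 1767 and 1867.5 UMIs, had it in 1.83% and 2.19% after thinning. In AT2-like cells the ratio of *Igf1* was 1.98 (1.78 to 2.18), and the source of its UMIs there was not tested. *Igf1r*, the receptor gene, was at 62.6 and 112 CPM, with 0.84 (0.58 to 1.10). *Igfbp3*, which encodes the main IGF carrier of plasma, was the gene past the fold, at 243 CPM (223 to 264) in control cells against 107 CPM (99.7 to 115) in *Gli1 HHIPCKO* cells, with −1.18 (−1.34 to −1.02), and −0.99 in cells chosen by 6 other markers. Its ratio was −0.80, −0.73 and −2.16 from the lowest to the highest band, so unlike *Igf1* it differed most in the strongly scoring cells. *Igfbp7*, the most abundant gene of the list, was at 3931 and 3299 CPM, with −0.25 (−0.29 to −0.22).

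**Figure D3:**
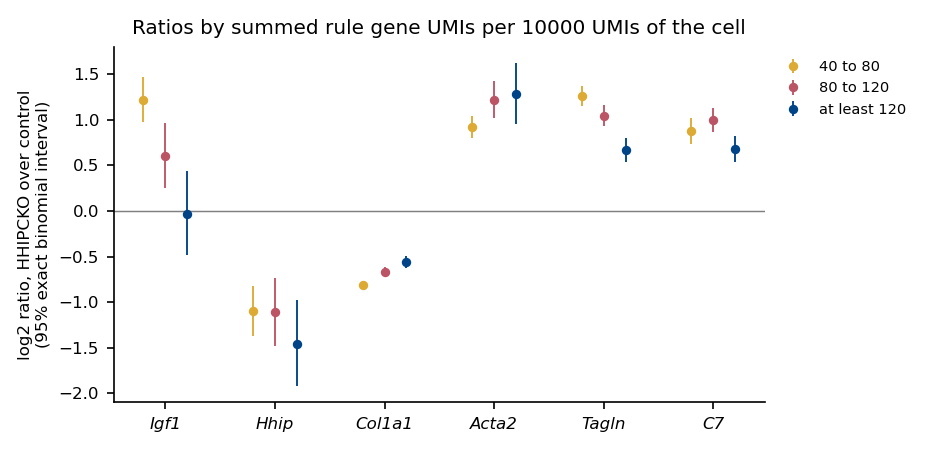
Log2 ratios (*Gli1 HHIPCKO* over control, vertical axis) of 6 genes in alveolar fibroblast-like cells split by the summed rule gene UMIs per 10000 UMIs, 1 point for each band with its 95% exact binomial interval. *Igf1* lies at 1.22 in the band from 40 to 80 and at −0.03 in the band from 120, while *Hhip*, *Col1a1*, *Acta2*, *Tagln* and *C7* keep their sign in all 3 bands.

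*Cdkn1a* (ENSMUSG00000023067, chr17:29090976-29100727), which encodes the cell cycle inhibitor p21, had the largest ratio among 20 senescence and p53 target genes. It stood at 26.3 CPM (20.1 to 33.8) in control cells against 141 CPM (133 to 150.2) in *Gli1 HHIPCKO* cells, a ratio of 2.43 (2.05 to 2.82). Under the alternatives this ratio lay between 1.48 and 3.63. In cells scoring 120 or more it had 0 UMIs in the control library and 107 CPM in the *Gli1 HHIPCKO* library, at least 16.3-fold higher with a floor of 3 counts over the control cells of that band. At 2000 UMIs per cell, 3.08% of control cells and 17.8% of *Gli1 HHIPCKO* cells of the rule had a UMI, and before thinning 5.90% and 25.3%. Pericyte-like cells had thinned shares of 2.44% and 12.04%, so the control share in cells of the rule was near the lowest seen in a stromal class. The gene was also higher in every other class, with ratios of 1.18 in myofibroblast-like, 1.28 in adventitial-like, 2.86 in pericyte-like, 1.34 in smooth muscle-like and 1.40 in AT2-like cells.

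The rest of the senescence and p53 list moved less. Of the 20 genes 13 were compared, 2 were at or above 1, none at or below −1, and the median was 0.20. The other gene past the fold was *Trp53inp1*, a p53 target of the stress response, at 48.3 and 117 CPM, with 1.27 (0.99 to 1.57). *Sesn1*, a sestrin gene also induced by p53, was at 89.4 and 152 CPM, with 0.76 (0.55 to 0.99). *Plk2*, a polo-like kinase gene, was at 77.7 and 48.2 CPM, with −0.69 (−0.95 to −0.42), and *Cdkn1c*, a cell cycle inhibitor gene and the most abundant of the list, at 273 and 248 CPM. *Cdkn2a*, which encodes p16, had 0 UMIs in both libraries, and *Mdm2*, another p53 target, was at 29.4 and 33.99 CPM, with 0.21 (−0.18 to 0.62). Of 23 proliferation genes only 3 were compared, 1 of them at or above 1, with a median of 0.05. That gene was *Hmgb2*, a chromatin protein gene, at 18.6 and 50.1 CPM, with 1.43 (0.98 to 1.92), while *Stmn1*, a microtubule regulator gene, was at 29.8 and 28.6 CPM. The ratio of *Hmgb2* was under the fold at a threshold of 20, with 0.57, and changed sign, to −0.11, in cells chosen by 6 other markers.

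Most glucocorticoid-induced genes compared had ratios above 0. Of 15 listed 14 were compared, 13 were above 0, 5 were at or above 1, none was at or below −1, and the median was 0.78. Among all 5874 genes compared, 0.987% were at or above 1 and 0.902% at or below −1, with a median of 0.03. *Fkbp5* (ENSMUSG00000024222, chr17:28399094-28517527), a co-chaperone gene that limits glucocorticoid receptor signalling, stood at 15.1 CPM (10.5 to 21.01) in control cells against 71.4 CPM (65.5 to 77.7) in *Gli1 HHIPCKO* cells, with 2.24 (1.75 to 2.78). *Ddit4*, an inhibitor of the growth kinase mTOR, was at 20.3 and 87.3 CPM, with 2.10 (1.68 to 2.56). The metallothionein gene *Mt1* was at 62.6 and 267 CPM, with 2.09 (1.85 to 2.35), and *Errfi1*, which encodes a feedback inhibitor of the epidermal growth factor receptor, at 333 and 1021 CPM, with 1.62 (1.51 to 1.73). Also past the fold was *Pdk4*, a kinase gene that restrains glucose oxidation, at 23.7 and 62.99 CPM, with 1.41 (1.00 to 1.84). *Tsc22d3*, also known as *Gilz* and the most abundant of the list, was at 854 and 868 CPM, with 0.02 (−0.05 to 0.10), so the strongest gene of the list by level stayed near 0, and *Zbtb16*, a zinc finger repressor gene, was the gene below 0, at 115 and 74.9 CPM, with −0.62 (−0.83 to −0.40). List medians in the other classes were 0.76 in myofibroblast-like, 0.94 in adventitial-like and 0.82 in pericyte-like cells. *Errfi1* had ratios of 0.58 and 0.54 in myofibroblast-like and adventitial-like cells.

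All clock genes compared had ratios above 0. Of 16 listed 9 were compared, all 9 were above 0, 4 were at or above 1, and the median was 0.64. Of all 5874 genes compared, 0.987% were at or above 1, and their median was 0.03. Of the 4 clock gene calls 3 were lost under some alternatives, *Hlf* under 6, down to 0.86, *Nr1d2* under 2, down to 0.94 and *Tef* under 2, down to 0.89. From the lowest to the highest score band 9, 7 and 8 of the 9 clock genes were above 0. The list medians in myofibroblast-like, adventitial-like and pericyte-like cells were 0.41, 0.64 and 0.76. *Nr1d2*, which encodes the repressor REV-ERB beta, stood at 15.1 and 36.9 CPM, with 1.29 (0.78 to 1.84), and *Per3*, a period gene, at 40.6 and 92.5 CPM, with 1.19 (0.88 to 1.52). *Tef* and *Hlf*, both genes of transcription factors that bind the D-box, were at 31.1 and 65.5 CPM and at 20.7 and 43.6 CPM, with ratios of 1.08 (0.72 to 1.45) and 1.07 (0.63 to 1.54). *Per1*, a period gene that is also induced by glucocorticoids and is in both lists, was the most abundant, at 235 and 326 CPM, with 0.47 (0.34 to 0.61).

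**Figure D4:**
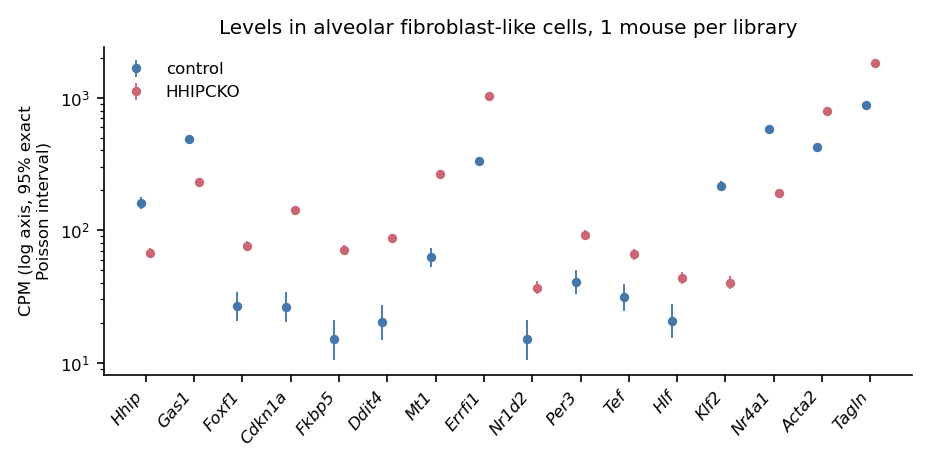
CPM (log axis) of 16 genes in the alveolar fibroblast-like cells of each library, 1 mouse each, with 95% exact Poisson intervals. *Cdkn1a* stands at 26.3 and 141 CPM and *Klf2* at 215 and 40.2 CPM.

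Since the 9 clock genes had ratios on the same side of 0 over all cells of the rule, though not in each score band, their promoters were searched for 2 motifs of clock proteins. These were RefSeq promoters (GRCm38.p6, 250 bases before to 50 bases after each start). The motifs were the E-box CACGTG, which reads the same on both strands, and the D-box TTATGTAA, which reads TTACATAA on the other strand. Of the 9 genes 8 had a promoter in the set, with 12 windows. The E-box was found in 4 of the 12 windows, 1 of the 2 of *Per1*, both of *Tef* and that of *Cry1*, and the D-box in 1 of the 12, that of *Per3*. Among all 32851 promoters of the same length, 7.15% held the E-box and 0.938% the D-box. A match is a description of the sequence and no evidence of binding. The windows of *Per1* (chr11:69098699-69098998, plus strand), *Tef* (chr15:81802423-81802722, plus strand) and *Per3* (chr4:151044616-151044915, minus strand) are given because these genes had the motifs and were named above, with the motifs in capitals:
Per1: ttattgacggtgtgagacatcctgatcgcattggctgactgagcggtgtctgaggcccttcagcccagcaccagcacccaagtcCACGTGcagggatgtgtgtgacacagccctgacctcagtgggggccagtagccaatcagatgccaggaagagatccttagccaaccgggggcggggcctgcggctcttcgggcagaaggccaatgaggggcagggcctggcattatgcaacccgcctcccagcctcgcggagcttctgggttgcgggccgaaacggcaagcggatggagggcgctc
Tef: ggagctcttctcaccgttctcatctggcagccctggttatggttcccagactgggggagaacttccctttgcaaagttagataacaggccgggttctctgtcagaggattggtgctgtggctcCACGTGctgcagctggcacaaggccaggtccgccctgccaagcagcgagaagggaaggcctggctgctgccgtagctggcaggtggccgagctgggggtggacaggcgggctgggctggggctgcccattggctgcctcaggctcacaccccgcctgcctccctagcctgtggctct
Per3: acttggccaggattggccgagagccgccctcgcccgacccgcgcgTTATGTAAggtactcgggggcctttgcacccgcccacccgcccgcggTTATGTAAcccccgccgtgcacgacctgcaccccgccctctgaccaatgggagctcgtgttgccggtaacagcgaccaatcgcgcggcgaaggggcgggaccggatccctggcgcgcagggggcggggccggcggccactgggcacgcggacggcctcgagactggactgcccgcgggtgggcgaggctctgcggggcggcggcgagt

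Immediate early genes split in direction. Of 20 listed 17 were compared, 1 was at or above 1, 2 were at or below −1, and the median was 0.36. *Klf2* (ENSMUSG00000055148, chr8:72319033-72321656), a transcription factor gene that responds to shear and other mechanical force, stood at 215 CPM (196 to 234) in control cells against 40.2 CPM (35.8 to 44.9) in *Gli1 HHIPCKO* cells, with −2.42 (−2.63 to −2.21). *Nr4a1* (ENSMUSG00000023034, chr15:101254269-101274795), an orphan nuclear receptor gene, stood at 579 CPM (549 to 611) in control cells against 189.5 CPM (179.9 to 199.5) in *Gli1 HHIPCKO* cells, with −1.61 (−1.72 to −1.50). From the lowest to the highest score band the ratio was −1.72, −3.24 and −2.79 for *Klf2* and −1.81, −1.35 and −0.76 for *Nr4a1*. *Ier3*, a gene of early stress responses, was at 27.6 and 85.96 CPM, with 1.64 (1.27 to 2.03) and 0.58 in cells chosen by 6 other markers, and *Socs3*, an inhibitor of cytokine signalling, at 30.2 and 52.8 CPM, with 0.80 (0.43 to 1.19). *Cebpb*, a transcription factor gene and the most abundant of the list, was at 1175 and 1371 CPM, with 0.22 (0.16 to 0.28). Genes often induced by tissue dissociation lay on both sides of 0. *Fos* was at 239 and 319 CPM and *Jun* at 351 and 533 CPM, ratios of 0.42 (0.28 to 0.55) and 0.60 (0.49 to 0.71), whereas *Btg2* was at 366 and 271 CPM and *Egr1* at 218 and 196 CPM, ratios of −0.43 (−0.55 to −0.32) and −0.16 (−0.30 to −0.01). In myofibroblast-like cells *Klf2* had a ratio of −0.46 and *Nr4a1* of −0.35, and in adventitial-like cells −0.58 and −1.81.

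Each of the remaining lists had at most 1 member past the fold. Among all genes compared 0.987% were at or above 1 and 0.902% at or below −1, and in such short lists 1 member exceeds these shares. Of 22 chemokine, cytokine and complement genes 20 are in the files and 7 were compared, *Csf1* was the 1 past the fold, and the median was 0.11. *Cxcl12*, the chemokine gene that attracts CXCR4-bearing cells, was at 29.4 and 57.9 CPM, with 0.98 (0.61 to 1.37). Of 24 genes of the transforming growth factor beta and bone morphogenetic protein families 18 were compared, *Gdf10* was the 1 past the fold, and the median was −0.12. *Id1*, a target of bone morphogenetic proteins, was at 22.4 and 37.1 CPM, with 0.73 (0.30 to 1.18), and *Tgfbr3*, the co-receptor gene betaglycan, at 212 and 347 CPM, with 0.71 (0.57 to 0.85). *Ccn2*, a matricellular gene and target of these signals, was the most abundant, at 542 and 342 CPM, with −0.67 (−0.76 to −0.57). Of 16 hypoxia-responsive genes 7 were compared, none past the fold, with a median of −0.11, *Bnip3*, a mitophagy gene, at 50.1 and 96.7 CPM, and *Vegfa*, the vascular growth factor gene, at 344 and 319 CPM.

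Of 17 integrin and adhesion genes 9 were compared, none past the fold, with a median of 0.13. *Vcam1*, an adhesion molecule gene, was at 466 and 343 CPM, with −0.44 (−0.55 to −0.34), and *Itga9*, an integrin subunit gene, at 118 and 86.9 CPM, with −0.45 (−0.65 to −0.24). All 20 ribosomal protein genes were compared and all had ratios above 0, with a median of 0.39. The median of all 5874 genes compared was 0.03. From the lowest to the highest score band 20, 19 and 19 of them were above 0. The median of the list was 0.15 in myofibroblast-like and 0.01 in adventitial-like cells. *Rps4x*, which lies on the X chromosome, was the most abundant, at 1813 and 2556 CPM, with 0.50 (0.45 to 0.54).

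Variation among the cells of the rule was greatest for red cell and AT2 transcripts. Ranked by the lower of the values in the 2 libraries, the 10 genes with the largest variance to mean ratio at 2000 UMIs per cell were *Hbb-bs*, *Sftpc*, *Hbb-bt*, *Gm42418*, *Lyz2*, *Lyz1*, *Sftpa1*, *Col1a1*, *AY036118* and *Eln*. *Hbb-bs*, a globin gene of red cells, had a ratio of 583 in control and 485 in *Gli1 HHIPCKO* cells. *Sftpc* had 245 and 219.6. *Hbb-bt*, *Lyz2*, *Lyz1* and *Sftpa1* are genes of red cells, macrophages and AT2 cells, and *Gm42418* and *AY036118* are gene models that overlap ribosomal RNA. Among genes that fibroblasts make themselves, *Col1a1* had 20.4 and 13.8 and *Eln* had 19.3 and 12.2. Both varied less among *Gli1 HHIPCKO* cells, in which their means were also lower. The rule gene *Npnt* had 3.96 and 3.09, but the rule itself limits its spread, so these values are not set against the others.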

How the data were processed

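Single-cell libraries of sorted lung stromal and epithelial cells of 2 mice at P14, 1 control mouse and 1 *Gli1 HHIPCKO* mouse, were used. The deposited files hold UMI counts per gene and cell, which the authors made with Cell Ranger from reads aligned to mm10, before any normalization. The file headers name version 6.1.0 and the labels version 3.1.0, and the labels and the methods also differ on the kit and the sequencer, so none of these is relied on here. Both libraries were read as deposited (32285 genes, 32235 with a position in the GRCm38 annotation).

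UMIs were summed over the cells of the rule in each library. With 1 mouse per group no test was made. Genes were compared if detected in 10% or more of the cells in either library with at least 50 UMIs in both together, and counted as past the fold at a log2 ratio of at least 1 or at most −1. Intervals are 95% exact Poisson (CPM) or exact binomial (shares and ratios) and cover counting error only. A count of 0 was set to 3 counts in ratios, which are then bounds. Shares of cells were computed after thinning each cell to 2000 UMIs. The ratio was checked on simulated data. Thinning was checked on the control cells of the rule, only for a total of 2000 UMIs in each cell. The scripts used numpy 2.4.6, pandas 2.3.3, scikit-learn 1.9.0, scipy 1.17.1 and matplotlib 3.10.9 under Python 3.11.15.

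Named genes were the rule genes and markers, the 12 highest and 12 lowest ratios, up to 4 members with the largest absolute ratio and the most abundant member of each of 24 gene lists, sex-linked genes, the 10 genes with the largest variance to mean ratio, and genes the study names for fibroblasts. Beyond this rule, *Slc7a10*, *Col13a1*, *Crabp1*, *Fgfr4*, *Macf1*, *Plin2*, *G0s2*, *Slc27a6*, *Pparg*, *Ptch1*, *Gli2*, *Fgf10*, *Hgf*, *Fn1*, *Nid1*, *Col4a5*, *Smtn*, *Pdk4*, *Mdm2*, *Cdkn2a*, *Stmn1*, *Fos*, *Jun*, *Btg2*, *Egr1*, *Rps4x* and *Lpl* were picked with their values in view. The cells and the lists were chosen with earlier results of these data known. The thresholds of the comparison classes and the bands of the rule score were set after the cells had been seen.

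Alternatives changed the threshold, the number of rule genes, each rule gene in turn, the depth at which the rule was applied, the other markers and classes, doublet scores (computed by the Scrublet method, with 0.8% of cells per 1000 cells left out), the mitochondrial limit, the total, the scaling, the average and the detection filter. Leaving out cells with a shared barcode and taking only cells with 80 to 120 rule gene UMIs per 10000 were added after seeing the data. The 6 other markers were *Tcf21*, *Hsd11b1*, *Gyg*, *Cdo1*, *Ces1d* and *Prex2*, of which at least 3 had to be detected, with no threshold on their level. They chose 1124 control and 2900 *Gli1 HHIPCKO* cells, a looser set than the rule, and its share of other cell types was not measured.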

Additional observations from a re-analysis of the deposited data

Results flagged for a closer look

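For 5 compared genes named in the report, the log2 ratio of *Gli1 HHIPCKO* over control lay on the other side of 0 in another stromal class. The 2 classes searched were myofibroblast-like and adventitial-like cells. Both ratios had to be at least 0.5 from 0, with intervals that exclude 0. *Ly6a*, in too few cells for the comparison, also met this, with 2.07 (0.89 to 3.56) and −1.47 (−2.55 to −0.49) in myofibroblast-like cells. None of these differences was tested, and each class comes from the same 2 mice. *Ccn5* had −1.46 in alveolar fibroblast-like and 1.67 in myofibroblast-like cells, and *Osr1* had −0.95 and 0.59 in the same classes. *Igfbp3* had −1.18 in alveolar fibroblast-like and 0.74 in adventitial-like cells. In the same pair of classes *Plk2* had −0.69 and 0.58, and *Ccn2* had −0.67 and 0.51. In the other of the 2 classes each gene lay on the same side of 0 as in alveolar fibroblast-like cells, with *Ccn5* at −1.53 and *Osr1* at −0.19 in adventitial-like cells, and *Igfbp3* at −2.59, *Plk2* at −1.58 and *Ccn2* at −1.01 in myofibroblast-like cells.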

How the results depend on the processing

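The share of chosen cells followed the rule, and the cause was not tested for any value below. In the control and *Gli1 HHIPCKO* libraries in turn it was 6.94% and 17.3% at a threshold of 20, 3.25% and 10.9% at 80, 5.04% and 14.8% with at least 4 rule genes, 3.68% and 11.9% without *Npnt*, 4.26% and 13.4% without *Limch1*, 5.03% and 14.4% without *Inmt*, 4.75% and 13.1% for the rule on thinned cells, 4.89% and 13.7% without cells of other classes, 10.2% and 23.5% with 6 other markers, and 5.0% and 13.97% without the top doublet scores. Without *Scube2* in the rule the *Gli1 HHIPCKO* share was 14.8%. The share was larger in the *Gli1 HHIPCKO* library under each of these. Counts at or past 1 and −1 became 190 and 183 without the detection filter, 18 and 16 with detection in at least 25% of cells, where fewer genes were compared, and 108 and 92 in cells with 80 to 120 rule gene UMIs per 10000, where fewer cells were counted. *Hhip* kept its sign under all alternatives run, from −1.48 with 6 other markers to −1.11. *Igf1* also kept its sign, at 0.36 with a threshold of 80, 0.41 without *Npnt*, 0.28 without cells of other classes, 1.25 with 6 other markers, 0.29 without the top doublet scores, 0.54 as a mean over cells and 0.50 from thinned cells. With 6 other markers *Csf1* (−0.79), *Foxf1* (0.84), *Gas1* (−0.79), *Hlf* (0.86), *Ier3* (0.58), *Igfbp3* (−0.99), *Tagln* (0.77) and *Tgfbi* (0.81) were no longer past the fold, and *Hlf* and *Tgfbi* were short of it under 5 further alternatives, *Tagln* under 4 and *Igfbp3* under 1. Of 43 genes of the text past the fold, 13 were short of it under at least 1 alternative, also *Gdf10* and *Nr1d2* (−0.90 and 0.99 at 80), *Rbp4* (−0.34 at 80) and *Tef* (0.89 in cells with 80 to 120). Of 81 compared genes short of it, 17 were past it under at least 1, most often *Acta2* and *Myh11*, under 7 each. Some ratios and list medians changed sign, counted for ratios whose interval excluded 0 and for medians of at least 0.1 either way. At a threshold of 20 these were *Dcn* (−0.18) and the chemokine list (−0.030). At 80 they were *Cdkn1c* (0.11), *Fn1* (−0.048), *Mfap4* (−0.051), *Wnt2* (−0.077) and *Wnt5a* (−0.097). In cells with 80 to 120 they were *Cdkn1c* (0.018), *Fn1* (−0.021), *Mfap4* (−0.00028), *Pdgfrb* (0.20) and *Wnt2* (−0.16). With 6 other markers they were *Dcn* (−0.14), *Egr1* (0.21), *Fgfr4* (0.078), *Hmgb2* (−0.11), *Pi16* (−0.24), the elastic fibre list (0.032) and the list of transforming growth factor beta and bone morphogenetic protein genes (0.053). Without cells of other classes they were *Mustn1* (0.0046), *Thbs2* (−0.10) and *Wnt5a* (−0.30), and on thinned cells *Dcn* (−0.091) and the Hedgehog list (−0.035). The Hedgehog list was at −0.027 with at least 4 rule genes and −0.035 without *Hsd11b1*, the integrin list at −0.039 without *Limch1*, the hypoxia list at 0.15 with detection in at least 25% of cells, and *Wnt5a* at −0.0064 without *Npnt* and −0.18 without the top doublet scores. Of 2489 values of gene ratios under the alternatives, 2084 lay within the interval of the main value, 383 moved outside it and 22 changed sign, and of 500 values of list medians, 401 moved by less than 0.1, 91 by more and 8 changed sign. Collagen, adventitial, glucocorticoid, clock, contractile and ribosomal list medians kept their sign throughout, the contractile median at 0.070 with 6 other markers. Depth limits single genes such as *Gli1*, with few UMIs in 610 control cells.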
